A study of Homo sapiens with 16 samples.

Results

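KYNU, the gene of kynureninase, was the enzyme of tryptophan breakdown examined here that differed most between BMAL1 knockout (KO) and wild-type (WT) breast cancer cells, at 20.7 to 49.3 FPKM in KO cells and 0.362 to 0.552 FPKM in WT cells. AHR, the receptor that metabolites of this route are known to activate, and its target genes CYP1A1 and CYP1B1 had lower values in KO cells under every treatment, as did most of the tested genes around AHR on chromosome 7. NQO1, ALDH3A1 and EREG, which are also known as AHR targets, were called higher in KO cells under every treatment. The genes described are 10 of the 60658 in each of the authors' tables, found by their symbols, each of which has 1 row. They are KYNU, IDO1, KMO and AFMID of the kynurenine pathway, and AHR, ARNT, AHRR, CYP1A1, CYP1B1 and TIPARP of the aryl hydrocarbon receptor system. These genes were selected on their KO and WT FPKM in these same tables, so differences between the genotypes are given as a description and support nothing.

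The cells are MDA-MB-231, a long-established human line from a triple-negative breast tumour, and RNA-seq was run on 16 samples in 8 groups of 2 biological replicates. The KO groups carry the label BMAL1 -/- and received cisplatin, which crosslinks DNA, doxorubicin, which poisons topoisomerase, tunicamycin, which blocks N-linked glycosylation in the endoplasmic reticulum, or control treatment. The WT groups received the same 4 treatments. Per the labels, cisplatin and doxorubicin were used to start apoptosis, and tunicamycin was a comparison in which little effect of BMAL1 was foreseen. The labels give no dose, time, vehicle or number of KO clones, so a property of 1 clone cannot be told apart from the loss of BMAL1. For each treatment a deposited table lists the level of a gene in the KO and in the WT group as FPKM, which is fragments scaled for transcript length and sequenced total, with the authors' own test of KO against WT. No value per replicate or count is held in these tables, so no SD, interval or new test can be given. The tables are taken as normalized separately, which the labels do not state, so an order of levels over treatments is a description with no spread to set it against. Called means here that the authors tested the gene and their q, a p-value adjusted over the tested genes of the table, was at most 0.05.

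Most tryptophan that is not used for protein enters the kynurenine pathway. IDO1 or TDO2 opens its ring, AFMID (formamidase) turns the product into kynurenine, and KMO and KYNU lead on from kynurenine towards anthranilate, 3-hydroxyanthranilate and, in some tissues, NAD. Kynurenine and kynurenic acid are known ligands of AHR, a transcription factor that on binding a ligand moves to the nucleus, pairs with ARNT and induces CYP1A1, CYP1B1, TIPARP and its own repressor AHRR. AHR, ARNT and BMAL1 belong to the same family of bHLH-PAS proteins, whose members bind DNA as pairs.

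Windows of 300 bases, from 250 before to 50 after the start of transcription, are shown for the genes on which the results turn (RefSeq, GRCh38.p14). They are KYNU, with the greatest difference, AHR, CYP1A1 as its best known target, and TIPARP, a target whose values were far lower under doxorubicin. Capitals mark the core of the AHR site, GCGTG, or CACGC where it lies on the other strand, and the E-box CACGTG, which CLOCK and BMAL1 are known to bind.
KYNU, chr2:142877414-142877713, plus strand: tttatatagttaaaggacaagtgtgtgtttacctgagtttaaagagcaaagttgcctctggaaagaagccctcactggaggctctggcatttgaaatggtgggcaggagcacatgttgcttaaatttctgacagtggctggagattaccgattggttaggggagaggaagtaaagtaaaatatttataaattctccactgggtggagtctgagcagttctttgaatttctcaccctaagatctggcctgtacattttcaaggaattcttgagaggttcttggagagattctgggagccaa
AHR, chr7:17298402-17298701, plus strand: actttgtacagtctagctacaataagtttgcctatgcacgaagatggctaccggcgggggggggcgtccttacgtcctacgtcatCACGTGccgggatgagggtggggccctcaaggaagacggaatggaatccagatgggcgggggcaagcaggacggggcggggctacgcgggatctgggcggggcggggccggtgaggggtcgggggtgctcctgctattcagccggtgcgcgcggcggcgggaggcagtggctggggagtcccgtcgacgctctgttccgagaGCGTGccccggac
CYP1A1, chr15:74725479-74725778, minus strand: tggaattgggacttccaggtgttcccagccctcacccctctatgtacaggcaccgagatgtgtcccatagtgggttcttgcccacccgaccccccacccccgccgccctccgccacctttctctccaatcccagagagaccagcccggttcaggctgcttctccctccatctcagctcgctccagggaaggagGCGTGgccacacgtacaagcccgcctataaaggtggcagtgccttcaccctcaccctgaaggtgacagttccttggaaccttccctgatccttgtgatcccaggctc
TIPARP, chr3:156674340-156674639, plus strand: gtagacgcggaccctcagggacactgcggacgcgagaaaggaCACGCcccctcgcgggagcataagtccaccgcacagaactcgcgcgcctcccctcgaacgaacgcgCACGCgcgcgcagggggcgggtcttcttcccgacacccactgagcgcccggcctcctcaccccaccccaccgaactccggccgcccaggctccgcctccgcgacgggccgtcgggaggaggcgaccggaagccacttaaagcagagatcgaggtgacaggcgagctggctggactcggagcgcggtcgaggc
The KYNU window held neither motif. The AHR window held 1 E-box 165 bases before the start and 1 AHR core 37 bases after it. The CYP1A1 window held 1 core 57 bases before the start. The TIPARP window shown is the first of 3 starts and held 2 cores on the other strand, 208 and 142 bases before the start, while the windows of its other 2 starts held none. AHRR held 1 core at one start, 30 bases before it, and 2 at the other, 247 and 42 bases before it, AFMID held 1 core on the other strand 15 bases before its start, and KMO and ARNT held none. Of 35116 windows of the same length in the table, 36.5% held the AHR core and 7.26% the E-box. In the 11 windows of the members, no E-box shared bases with a core. Windows of 8 of the 10 genes were examined, without IDO1 and CYP1B1, and a match of letters does not show that a factor bound there.

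ARNTL, the gene of BMAL1, stood at 0.941 FPKM under cisplatin, 0.474 under doxorubicin, 2.24 under tunicamycin and 0.889 in control in KO cells. The WT values were 1.26, 1.31, 3.25 and 5.67 FPKM in the same order. The KO value was the lower one each time, but in the authors' deposited table it was called only under doxorubicin (q = 0.00509) and in control (q = 0.000213), with q = 0.467 under cisplatin and q = 0.0810 under tunicamycin. The labels do not give the edited part of ARNTL, and transcripts with a small edit would still be counted. Mesenchymal markers of this line were present, with VIM at 2883 to 6640 FPKM over KO and WT groups, and ESR1, PGR and CDH1 were at most 0.349 FPKM. Of the other epithelial markers, KRT8 had 447 to 739 FPKM in KO groups and 402 to 637 FPKM in WT groups, and EPCAM had 1.03 to 2.07 FPKM in KO groups and 3.93 to 6.33 FPKM in WT groups. The extraction protocol speaks of fibroblast lines, but DCN, a defining fibroblast gene, was at 0 in all 8 groups, and the 6 fibroblast markers summed to 1.54 to 9.76 FPKM in KO groups and 0.277 to 7.36 FPKM in WT groups. COL1A1 led that sum in every group and was called higher in KO cells under doxorubicin, tunicamycin and control (log2 ratios 3.24, 1.43 and 1.31), and the part of fibroblasts in the results was not tested.

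Kynureninase hydrolyses kynurenine and 3-hydroxykynurenine. In KO cells KYNU had 20.7 FPKM under cisplatin, 31.2 FPKM under doxorubicin, 49.3 FPKM under tunicamycin and 37.9 FPKM in control. WT cells had 0.362 FPKM under cisplatin, 0.407 FPKM under doxorubicin, 0.552 FPKM under tunicamycin and 0.527 FPKM in control. The lowest KO group was thus far above the highest WT group. As deposited, tunicamycin was highest and cisplatin lowest in both genotypes, but with each group scaled to its upper quartile WT cells were highest under doxorubicin. KYNU in KO cells was 57.2-fold the WT value under cisplatin, 76.6-fold under doxorubicin, 89.4-fold under tunicamycin and 71.9-fold in control. These are log2 ratios of 5.84, 6.26, 6.48 and 6.17. In the same order of treatments, 11 of 14142, 15 of 11754, 17 of 13797 and 13 of 12803 tested genes with finite ratios had a larger ratio than KYNU. In each of the authors' deposited tables KYNU had the smallest q there is, 0.000167 under cisplatin, 0.000186 under doxorubicin, 0.000173 under tunicamycin and 0.000213 in control. That q was shared by 4267, 3193, 4016 and 3044 genes and does not rank KYNU among them. Because these are bulk cells, more cells that express KYNU and more KYNU RNA per cell cannot be told apart.

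KYNU is known for its expression in macrophages, so markers of myeloid cells stand beside it. The summed level of the 7 myeloid markers was 176 to 438 FPKM in KO groups and 65.7 to 236 FPKM in WT groups, nearly all of it CD68, a lysosomal protein, and CD68 and CSF1R were the 2 of the 7 called higher in all 4 tables. CSF1R, the receptor for colony stimulating factor, had 1.77, 2.64, 2.58 and 4.63 FPKM in KO cells and 0.556, 0.372, 0.334 and 0.667 FPKM in WT cells under cisplatin, doxorubicin, tunicamycin and control. PTPRC, which marks all white blood cells, was at 0 in every KO group and at most 0.0135 FPKM in WT groups, while SPI1 and ITGAM were at most 0.205 FPKM in any group. CD14 had 0.511 to 2.03 FPKM in KO groups and 0.567 to 1.14 FPKM in WT groups and was never called. LYZ was at most 0.195 FPKM in any group. The part of other cell types in the KYNU result was not tested beyond these values.

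The genes around KYNU had ratios far smaller than its own. The KYNU gene spans chromosome 2 from 142877498 to 143055832 on the plus strand of GRCh38. The other tested genes of its window of 10 Mb, 7 or 8 per table, had a median log2 ratio of 0.19 under cisplatin, 0.43 under doxorubicin, 0.40 under tunicamycin and 0.15 in control. GTDC1, a glycosyltransferase gene and the only one within 1 Mb tested in all 4 tables, had log2 ratios of 0.11, 0.90, 0.87 and 0.43, and was called higher under doxorubicin and tunicamycin only.

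The enzymes upstream of KYNU were at or near 0 or close to equal in the genotypes. IDO1, the first and rate-limiting enzyme outside the liver, was listed at 0 in all 8 groups. KMO, which makes 3-hydroxykynurenine, had 0.0505, 0.198, 0.00805 and 0.0903 FPKM in KO cells under cisplatin, doxorubicin, tunicamycin and control. In WT cells KMO had 0.217, 0.0229 and 0.0603 FPKM under the 3 drugs and was listed at 0 in control. Neither gene was tested in any table, and KMO overlaps OPN3 on the opposite strand, which had 13.5 to 22.9 FPKM in KO groups and 5.39 to 10.2 FPKM in WT groups.

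AFMID, which forms kynurenine, was the most abundant member in both genotypes apart from KYNU in the KO cells under tunicamycin. Its KO values were 63.2 FPKM under cisplatin, 42.4 under doxorubicin, 28.6 under tunicamycin and 40.2 in control, against WT values of 48.3, 31.2, 25.5 and 37.5 FPKM. KO was the higher genotype in each table, but the ranges of the genotypes over treatments overlapped. AFMID was called higher in KO cells under cisplatin (log2 ratio 0.39) and doxorubicin (0.44) and not under tunicamycin or in control (q = 0.273 and q = 0.620 in the authors' deposited tables).

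**Figure D1:**
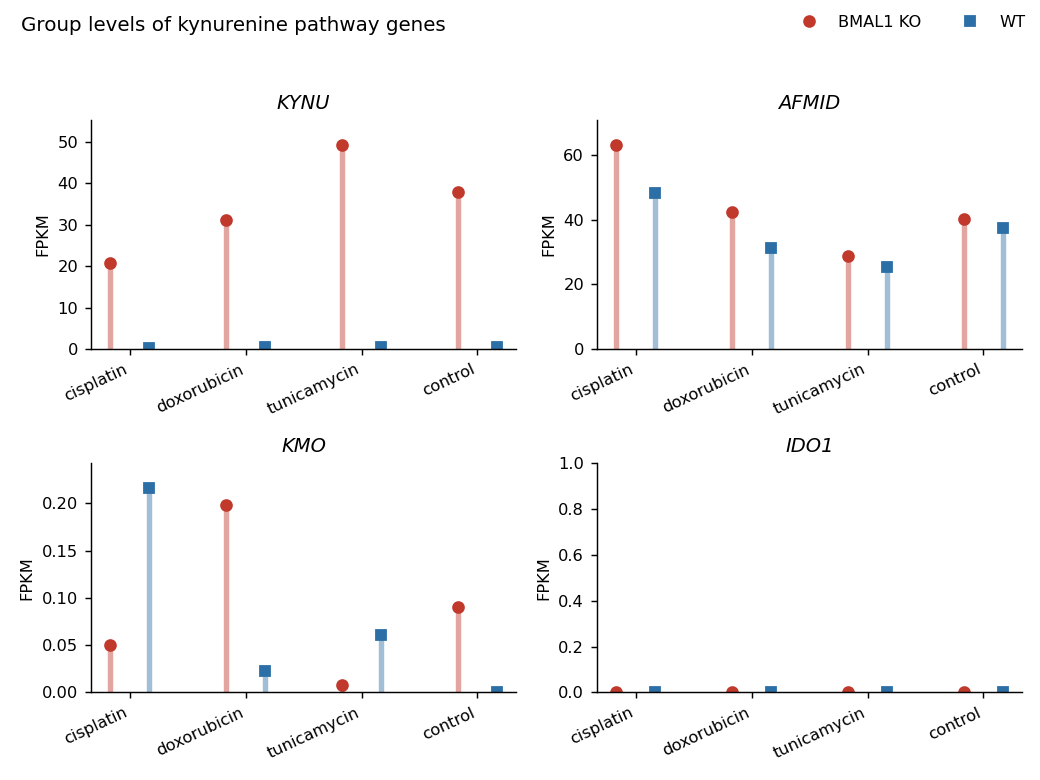
Group FPKM of KYNU, AFMID, KMO and IDO1 under each treatment, on linear axes from 0 that differ between panels, with 1 value per group (circles, BMAL1 KO; squares, WT) and no error bars because none can be computed. KYNU stands at 20.7 FPKM or more in every KO group and at 0.552 FPKM or less in every WT group, AFMID is close in both genotypes, KMO is at most 0.217 FPKM and IDO1 is at 0.

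AHR had the lower FPKM in KO cells under all 4 treatments, with 5.75 FPKM under cisplatin, 0.570 FPKM under doxorubicin, 3.71 FPKM under tunicamycin and 5.13 FPKM in control. WT cells had 10.7 FPKM under cisplatin, 1.17 FPKM under doxorubicin, 9.45 FPKM under tunicamycin and 10.0 FPKM in control. Outside doxorubicin, where both genotypes were low, every KO group was below every WT group. The log2 ratios were -0.90, -1.03, -1.35 and -0.97, so AHR in KO cells was at 39.3% to 53.6% of its WT value. AHR was called lower in all but the doxorubicin table, where levels were lowest and the authors' deposited table gives q = 0.109.

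Most of the tested genes around AHR were also lower in KO cells. AHR spans chromosome 7 from 17279834 to 17346152 on the plus strand of GRCh38, in a window of 10 Mb whose other tested genes had a median log2 ratio of -1.33 under cisplatin, -1.56 under doxorubicin, -1.15 under tunicamycin and -1.51 in control. Of these genes, 10 of 12, 8 of 12, 10 of 16 and 10 of 13 were called lower, beside 24.2%, 20.7%, 22.1% and 21.1% of all tested genes, and 1, under doxorubicin, was called higher. Set against that median, AHR was 0.43 higher under cisplatin, 0.53 higher under doxorubicin and 0.54 higher in control on the log2 scale, and its difference under tunicamycin was -0.20. The part of the region in the AHR result was not tested, and copy number was not measured.

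Within 1 Mb of AHR, SNX13, a sorting nexin, had log2 ratios of -2.26 under cisplatin, -3.06 under doxorubicin, -2.52 under tunicamycin and -3.41 in control. HDAC9, a histone deacetylase, had ratios of -2.11, -4.30, -1.63 and -1.51. These 2 of the 6 neighbours tested in all 4 tables were called lower in each. ANKMY2 was called lower in all but doxorubicin (-0.62, -0.37, -0.71 and -0.71), and TSPAN13 was never called (-0.44, -0.27, -0.52 and -0.60). BZW2 stayed between -0.07 and 0.17 and was called under doxorubicin only, where it was higher in KO cells (0.17). AC003075.4, an antisense transcript that overlaps AHR in the GENCODE annotation, was called lower under cisplatin (-3.01) and in control (-3.06). Its ratios under doxorubicin (-1.39) and tunicamycin (0.74) were not called, and it had at most 0.687 FPKM in KO and 1.65 FPKM in WT groups. ISPD, tested in 2 tables, was called lower under tunicamycin (-1.05) and had a ratio of 0.65 in control, and AGR2, tested under tunicamycin only, had -3.74 with no call.

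**Figure D2:**
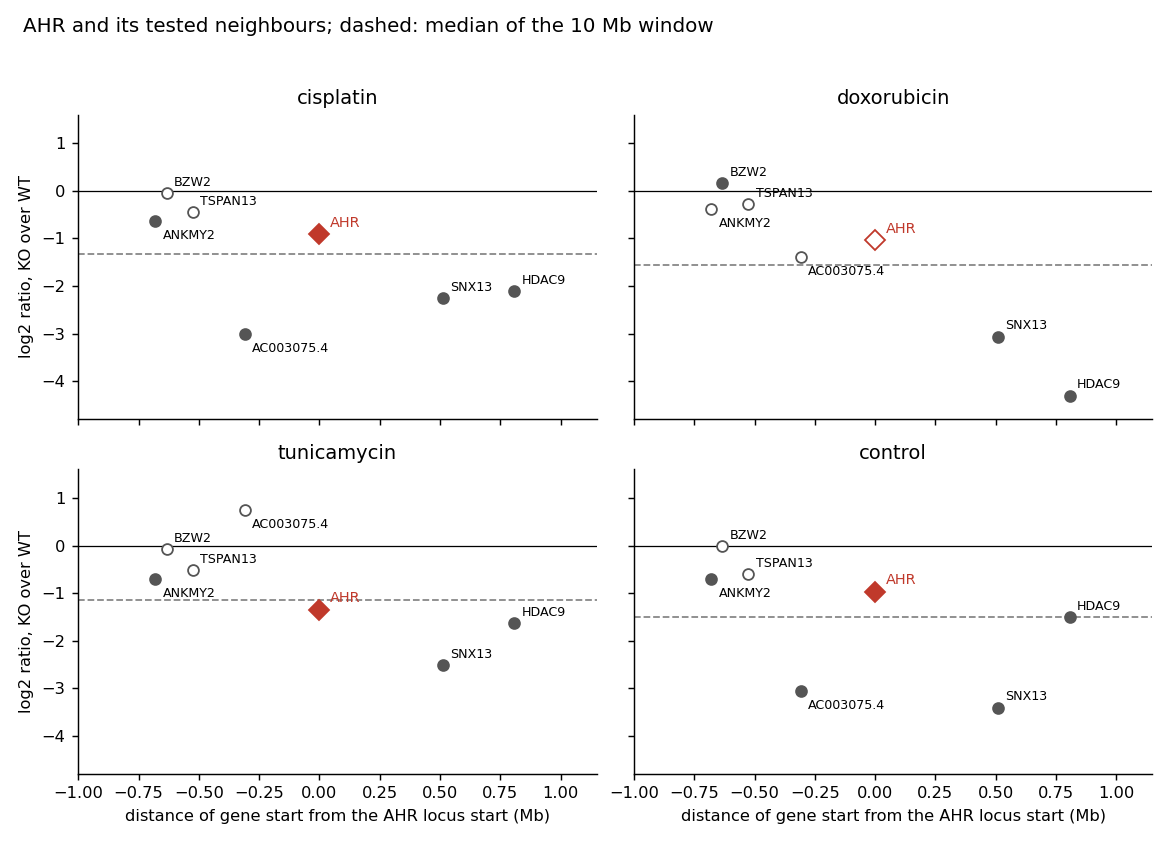
Log2 ratio of KO over WT FPKM of AHR (diamond) and the 6 genes within 1 Mb tested in all 4 tables (circles), by the distance of each gene's start from the start of the AHR locus, with 1 panel per treatment. Filled marks were called, open marks were not, and the dashed line is the median of the other tested genes in the 10 Mb window. AHR is above the line in 3 of the 4 panels, and SNX13 and HDAC9 are at or below it in all 4.

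ARNT, the partner that AHR needs to bind DNA, was called in control only. Its KO values were 13.1 FPKM under cisplatin, 2.70 under doxorubicin, 13.9 under tunicamycin and 12.1 in control, against WT values of 14.6, 3.52, 12.9 and 7.16 FPKM. Doxorubicin groups were the lowest in both genotypes and the remaining KO and WT groups overlapped. ARNT was called higher in KO cells in control (log2 ratio 0.75, q = 0.00332 in the authors' deposited table), and the 3 drug tables gave log2 ratios of -0.16, -0.38 and 0.10 with no call. In the same order the authors' deposited tables give q = 0.432, q = 0.35 and q = 0.538.

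AHRR, which competes with AHR for ARNT and represses its targets, was scarce. KO cells had 0.458 FPKM under cisplatin, 0.269 under doxorubicin, 1.05 under tunicamycin and 1.84 in control, and WT cells had 1.65, 0.423, 2.41 and 1.97 FPKM. KO cells were lower in each table, though in control the genotypes lay close together, with a log2 ratio of -0.09 (q = 0.904 in the authors' deposited table). AHRR was called lower under cisplatin (-1.85, or -0.86 with a pseudocount of 1) and tunicamycin (-1.20) and was not tested under doxorubicin. It overlaps PDCD6 on the same strand, which had 25.3 to 48.0 FPKM in KO groups and 30.9 to 47.8 FPKM in WT groups. Whether reads shared with that gene enter the AHRR values was not tested.

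CYP1A1, the monooxygenase that serves as the classical readout of AHR, had 2.16 FPKM under cisplatin, 4.15 under doxorubicin, 2.64 under tunicamycin and 1.48 in control in KO cells. WT cells had 3.61, 7.87, 4.04 and 3.92 FPKM. It was called lower in all 4 tables, with log2 ratios of -0.74, -0.92, -0.61 and -1.41, and was the only member besides KYNU and CYP1B1 called in every table. The weakest was tunicamycin (q = 0.0192 in the authors' deposited table). Over treatments the ranges overlapped at one point, since KO cells under doxorubicin exceeded WT cells under each other treatment.

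CYP1B1, which oxidises oestrogens and polycyclic hydrocarbons, was lower in every KO group than in any WT group as deposited. KO cells had 9.51 FPKM under cisplatin, 9.23 under doxorubicin, 11.7 under tunicamycin and 9.16 in control, while WT cells had 12.7, 17.4, 22.2 and 20.2 FPKM. The highest KO value lay below the lowest WT value, and the KO values varied less over treatments than the WT values. With each group scaled to its upper quartile, KO cells under doxorubicin and tunicamycin were above WT cells under cisplatin. CYP1B1 was called lower in all 4 tables, with log2 ratios of -0.42, -0.91, -0.92 and -1.14. CYP1B1-AS1, an antisense transcript over the same stretch of chromosome 2, had 0.241 to 0.454 FPKM in KO groups and 0.514 to 1.10 FPKM in WT groups. RMDN2, a protein-coding gene that overlaps CYP1B1 on the opposite strand, had 1.05 to 2.65 FPKM in KO and 1.08 to 2.25 FPKM in WT groups. Whether reads were counted by strand is not stated in the labels. The median log2 ratio of the CYP1B1 window of 10 Mb was -0.21, -0.08, -0.14 and -0.23, and the CYP1B1 ratio minus that median was -0.21, -0.84, -0.78 and -0.91.

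TIPARP, an ADP-ribosyltransferase that is induced by AHR and shuts it off, had 14.2 FPKM under cisplatin, 0.871 under doxorubicin, 13.5 under tunicamycin and 14.3 in control in KO cells. WT cells had 16.4, 0.751, 19.1 and 23.2 FPKM. KO cells were lower under cisplatin, tunicamycin and control, where TIPARP was called (log2 ratios -0.21, -0.50 and -0.70). Under doxorubicin both genotypes were below 1 FPKM, the log2 ratio was 0.21, and the authors' deposited table gave q = 0.576.

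**Figure D3:**
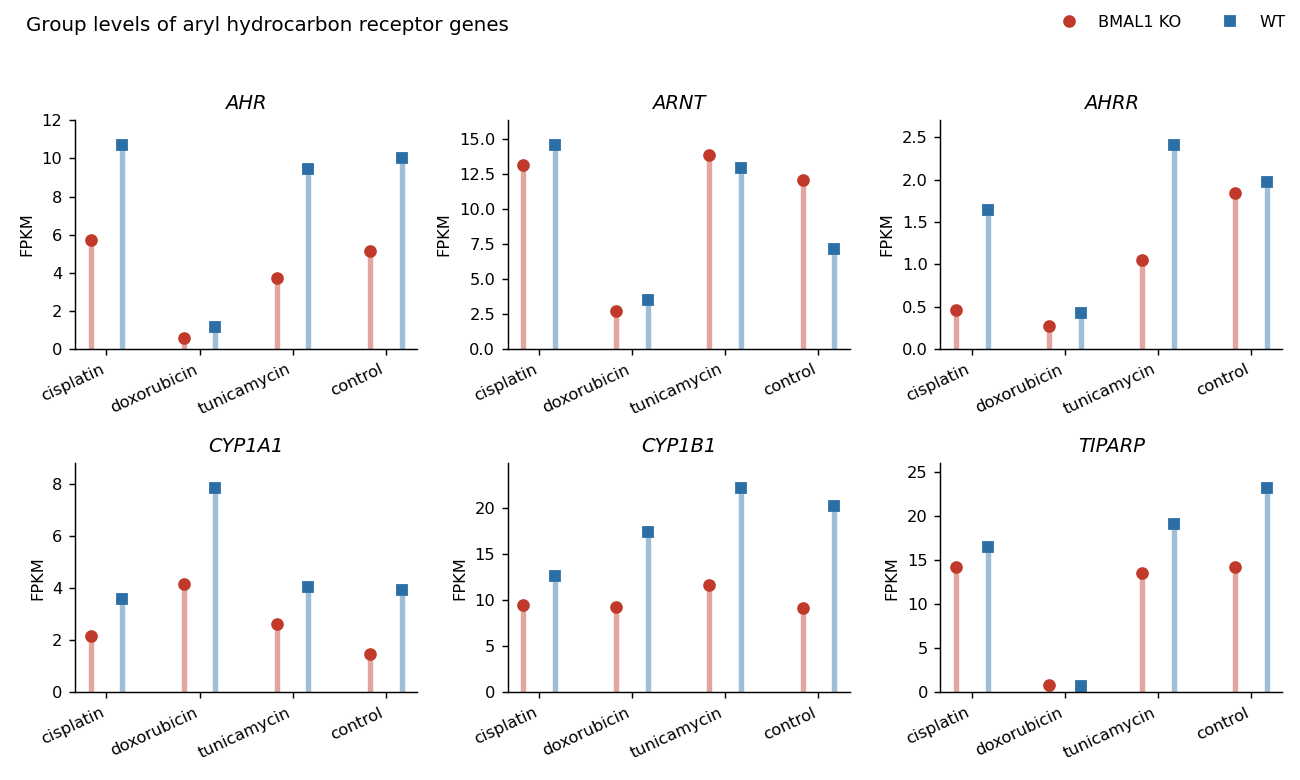
Group FPKM of AHR, ARNT, AHRR, CYP1A1, CYP1B1 and TIPARP under each treatment, on linear axes from 0 that differ between panels, with 1 value per group (circles, BMAL1 KO; squares, WT) and no error bars because none can be computed. The KO circle lies below the WT square in all 4 treatments for AHR, AHRR, CYP1A1 and CYP1B1. AHR, ARNT, AHRR and TIPARP are lowest under doxorubicin in both genotypes.

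Over the members, 2 were called higher and 5 lower of 8 tested under cisplatin, where 25.4% of all tested genes were called higher and 24.2% lower. Under doxorubicin 2 were called higher and 2 lower of 7 tested, against 24.4% and 20.7% of all tested genes. Under tunicamycin 1 was called higher and 5 lower of 8 tested, against 27.2% and 22.1%. In control 2 were called higher and 4 lower of 8 tested, against 22.7% and 21.1%. Calls in either direction covered 49.6%, 45.1%, 49.3% and 43.8% of all tested genes in these 4 tables. The median log2 ratio of the tested members was -0.31, -0.38, -0.56 and -0.40, beside 0.02, 0.04, 0.03 and 0.01 for all tested genes. Nothing is read from these counts, because the members were picked with the same ratios in view. Of the 10 members, 7 were tested in all 4 tables, AHRR in 3, and IDO1 and KMO in none.

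The members also differed between drug and control within a genotype. The tables are taken as normalized separately and hold no error, so the response to a drug is a difference of log2(FPKM + 1) between tables with no test. This scale understates changes of low genes. Under doxorubicin the median of the 10881 genes tested in all 4 tables was itself -0.54 in KO and -0.53 in WT cells, and each doxorubicin value is to be read against it. The median was 0.10 in KO and 0.08 in WT cells under cisplatin, and -0.07 and -0.08 under tunicamycin.

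Under doxorubicin TIPARP and AHR were far below control and CYP1A1 was above it in both genotypes. TIPARP differed from control by -3.03 in KO cells and -3.79 in WT cells, and only 5.0% and 1.20% of genes had a lower response. AHR differed by -1.96 in KO cells and -2.35 in WT cells, with 17.9% and 10.9% of genes lower. CYP1A1 went the other way, at 1.06 in KO cells and 0.85 in WT cells, where 97.4% and 94.2% of genes had a lower response. AHRR differed by -1.16 in KO cells and -1.06 in WT cells, where 33.6% and 34.4% of genes had a lower response. As deposited, CYP1B1 was near its control level, at 0.01 in KO cells and -0.21 in WT cells. The WT value becomes 0.36 when each group is scaled to its upper quartile. The KO value rises too with that scaling, since the KO upper quartile was 27.2 FPKM under doxorubicin and 40.4 FPKM in control.

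For ARNT the responses lay apart in the genotypes. Its response to doxorubicin was -1.82 in KO cells and -0.85 in WT cells. Under cisplatin it was 0.11 in KO cells and 0.93 in WT cells, and under tunicamycin 0.18 and 0.77, where 93.2% and 94.1% of genes had a lower response in WT cells. The low WT control value of 7.16 FPKM enters each of these WT differences. With upper-quartile scaling the KO value under cisplatin is -0.01.

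KYNU in KO cells was lower under cisplatin than in control, by -0.84 on the log2 scale, with 8.86% of genes lower. It was higher under tunicamycin, at 0.37, with 87.0% of genes lower. In WT cells the values were -0.16 and 0.02, on levels of at most 0.552 FPKM. The doxorubicin differences of -0.27 in KO cells and -0.12 in WT cells become 0.29 and 0.08 with upper-quartile scaling, so they have no settled direction. AFMID was higher under cisplatin (0.64 in KO cells, 0.36 in WT cells) and lower under tunicamycin (-0.48 in KO cells, -0.54 in WT cells). AHRR in KO cells differed from control by -0.96 under cisplatin and -0.47 under tunicamycin, against -0.17 and 0.20 in WT cells.

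**Figure D4:**
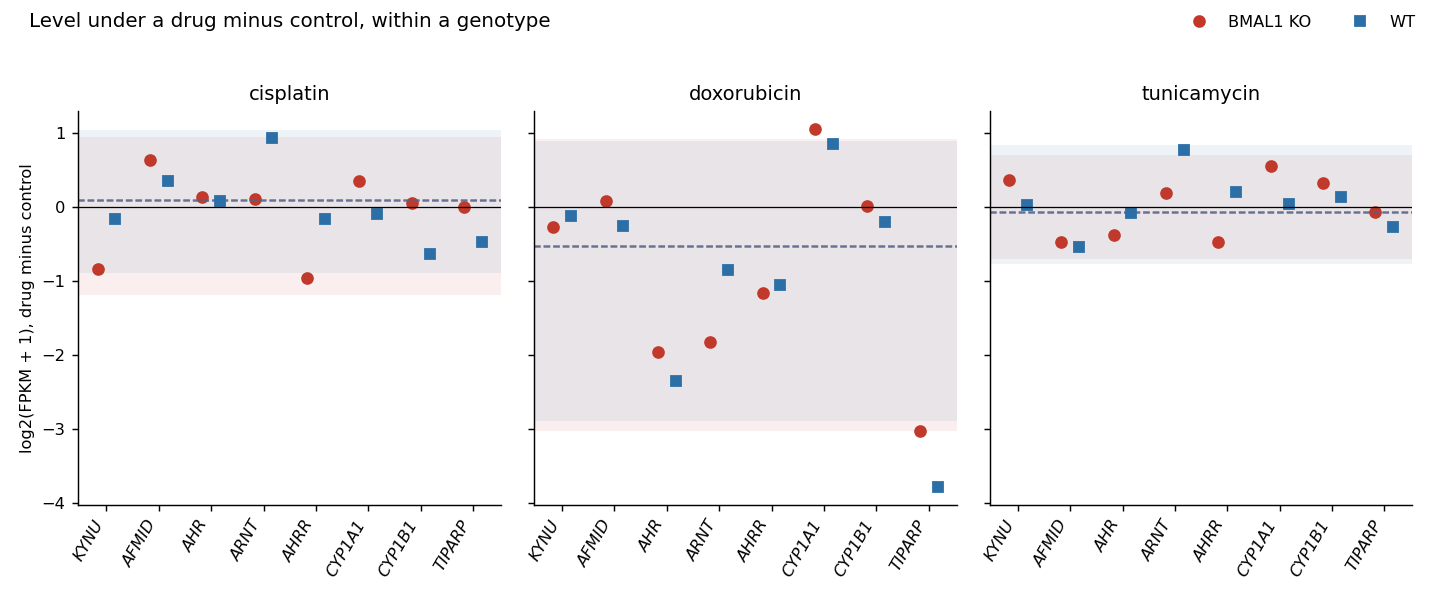
Difference of log2(FPKM + 1) between each drug and control within BMAL1 KO (circles) and WT (squares) cells for the 8 members tested in at least 3 tables. Dashed lines are the medians of the 10881 genes tested in all tables, and the shaded bands run from percentile 5 to percentile 95 of those genes in each genotype. Under doxorubicin TIPARP lies at or below the lower edge of the band, CYP1A1 lies above the band in KO cells and just under its upper edge in WT cells, and the ARNT circle lies below the square under each drug.

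The KO over WT ratio of CYP1A1 was nearer 0 under each drug than in control, by 0.67 under cisplatin, 0.49 under doxorubicin and 0.80 under tunicamycin on the log2 scale. For CYP1B1 the differences of drug minus control were 0.73, 0.23 and 0.22, and for TIPARP 0.49, 0.92 and 0.20. The TIPARP ratio changed sign under doxorubicin, where it was 0.21 beside -0.70 in control. The ARNT differences were -0.91, -1.14 and -0.65. Its ratio was 0.75 in control and also nearer 0 under the drugs, at -0.16, -0.38 and 0.10. The AHRR ratio was further below 0 than in control, by -1.75 under cisplatin (-0.80 with a pseudocount of 1) and -1.11 under tunicamycin. KYNU differed by -0.33, 0.09 and 0.31 and AHR by 0.07, -0.06 and -0.38. The 3 differences of each gene share the control groups, and none was tested.

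Among 9 further enzymes of the kynurenine pathway, those that turn kynurenine into kynurenic acid were called lower in KO cells or in both directions. The 9 genes gave 1 call higher and 2 lower under each drug, and 0 higher and 3 lower in control, with 4 tested per table. Of all tested genes, 22.7% to 27.2% per table were called higher and 20.7% to 24.2% lower. CCBL1 (kynurenine aminotransferase 1) was called lower in all 4 tables, with 2.48, 7.53, 3.36 and 4.20 FPKM in KO cells against 5.38, 11.9, 5.76 and 7.72 FPKM in WT cells under cisplatin, doxorubicin, tunicamycin and control. AADAT (aminotransferase 2) was called lower in all but cisplatin, with log2 ratios of -0.03, -0.48, -0.79 and -0.76. CCBL2 was called higher under cisplatin (0.31) and lower in control (-0.76). GOT2, a mitochondrial aminotransferase, stayed between 78.8 and 115 FPKM. TDO2 and IDO2, which open the tryptophan ring, HAAO and QPRT, which lead on to NAD, and ACMSD, which leads away from NAD, were never tested, with IDO2 and ACMSD at 0 in all groups and none above 0.549 FPKM. The median log2 ratio of the tested enzymes was -0.05, -0.17, -0.46 and -0.76.

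Of 13 genes of tryptophan transport and other tryptophan use, 2 to 4 were called higher and 1 or 2 lower per table, of 6 or 7 tested. The shares over all tested genes were 22.7% to 27.2% higher and 20.7% to 24.2% lower. SLC3A2, the heavy chain of the transporter that carries tryptophan, was called higher in KO cells under cisplatin, tunicamycin and control (log2 ratios 0.23, 0.55 and 0.41), and its doxorubicin ratio was -0.02. Its partner SLC7A5 was called in both directions by small amounts, at -0.23, -0.09, 0.13 and 0.06. WARS, which loads tryptophan onto its tRNA, was called higher under doxorubicin, tunicamycin and control (0.28, 0.59 and 0.28), with 468 FPKM in KO and 312 FPKM in WT cells under tunicamycin. MAOA, which breaks down serotonin, was called lower under cisplatin, tunicamycin and control (-0.82, -1.01 and -1.04). The list medians were -0.02, -0.02, 0.13 and 0.28.

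Of 11 genes of NAD synthesis and nicotinamide use, 4, 4, 3 and 2 were called higher and 1, 1, 2 and 2 lower in KO cells under cisplatin, doxorubicin, tunicamycin and control, of 8 or 9 tested. Over all tested genes, 25.4%, 24.4%, 27.2% and 22.7% were called higher and 24.2%, 20.7%, 22.1% and 21.1% lower. NMNAT2, which makes NAD from its mononucleotide, was called higher in all 4 tables, with 13.5, 22.6, 28.3 and 17.7 FPKM in KO cells against 5.61, 13.3, 12.7 and 5.30 FPKM in WT cells. NAMPT, the rate-limiting enzyme of NAD salvage, was called higher under cisplatin, tunicamycin and control (0.38, 1.14 and 0.48) and lower under doxorubicin (-0.40). NNMT, which methylates nicotinamide, was called lower under cisplatin, tunicamycin and control, where it had 0.293, 6.35 and 0.664 FPKM in KO cells against 1.65, 16.5 and 4.48 FPKM in WT cells. The list medians were -0.03, 0.31, 0.21 and -0.26.

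Several other known targets of AHR were called higher in KO cells. Of 13 such genes, 6 of 8 tested were called higher under cisplatin, 5 of 7 under doxorubicin, 6 of 7 under tunicamycin and 3 of 7 in control, beside 25.4%, 24.4%, 27.2% and 22.7% of all tested genes, and 1, CYP2S1 under cisplatin, was called lower. Their median log2 ratios were 1.03, 1.17, 1.59 and 1.18. Many of them are known to answer to other factors too, NQO1 and ALDH3A1 for example to NRF2 and EREG and PTGS2 to inflammatory signals.

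NQO1, a quinone reductase, had 1003 FPKM under cisplatin, 1671 under doxorubicin, 1094 under tunicamycin and 962 in control in KO cells, against 413, 439, 319 and 354 FPKM in WT cells. ALDH3A1, an aldehyde dehydrogenase, had 2.57, 5.37, 3.26 and 3.96 FPKM in KO cells against 0.557, 0.413, 0.296 and 0.703 FPKM in WT cells. EREG, the growth factor epiregulin, had 2.64, 1.14, 9.98 and 4.03 FPKM in KO cells against 0.359, 0.327, 0.860 and 0.637 FPKM in WT cells. In these 3 genes every KO group was above every WT group, and each was called higher in all 4 tables. PTGS2 (cyclooxygenase 2) and the drug exporter ABCG2 were called higher under the 3 drugs, with log2 ratios of 0.93, 1.08 and 0.95 and of 1.14, 1.17 and 1.59. In control ABCG2 had a ratio of 1.18 with no call. CYP1A2 was at 0 in all groups, and UGT1A1, UGT1A6, GSTA2 and SERPINB2 were never tested.

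Among 12 genes of the AHR complex and of related bHLH-PAS partners and coactivators, 3, 2, 3 and 2 were called higher and 6, 2, 5 and 4 lower under cisplatin, doxorubicin, tunicamycin and control, of 10 or 11 tested. Over all tested genes, 25.4%, 24.4%, 27.2% and 22.7% were called higher and 24.2%, 20.7%, 22.1% and 21.1% lower. HSP90AB1, the chaperone that holds unliganded AHR, was called higher in all 4 tables by small amounts (0.27, 0.22, 0.26 and 0.12). PTGES3 (p23), its co-chaperone, was called higher under the drugs (0.06, 0.15 and 0.24) and lower in control (-0.29). HSP90AA1 was called higher under cisplatin (0.10) and lower elsewhere (-0.11, -0.16 and -0.52). SIM2, a bHLH-PAS factor that also pairs with ARNT, had 0.979, 0.429, 0.457 and 0.428 FPKM in KO cells against 5.21, 2.14, 4.11 and 3.23 FPKM in WT cells and was called lower throughout. NCOA2, a coactivator, was called lower under cisplatin, tunicamycin and control (-2.60, -1.72 and -0.91). The list medians were -0.24, -0.03, -0.16 and -0.15.

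Interferon gamma is the best known inducer of IDO1 and KYNU, and genes of its signalling were called in both directions. IFNG itself was at 0 in all groups. Of the 8 genes, 3, 0, 4 and 4 were called higher and 2, 1, 1 and 2 lower in KO cells under cisplatin, doxorubicin, tunicamycin and control, of 4 to 6 tested. Over all tested genes, 25.4%, 24.4%, 27.2% and 22.7% were called higher and 24.2%, 20.7%, 22.1% and 21.1% lower. IFNGR1, the ligand-binding receptor chain, was called lower in all 4 tables, with 13.2, 7.28, 12.7 and 14.8 FPKM in KO cells against 24.7, 13.9, 17.8 and 22.8 FPKM in WT cells. IRF1, a transcription factor that interferon gamma induces, had 55.0, 57.1 and 39.5 FPKM in KO cells against 41.4, 24.0 and 17.6 FPKM in WT cells under cisplatin, tunicamycin and control, each called higher, and was below 1 FPKM in both genotypes under doxorubicin. SOCS1, the feedback inhibitor, was called higher under cisplatin, tunicamycin and control (0.90, 1.11 and 2.04), as was IFNGR2 (0.22, 0.50 and 0.51). The list medians were -0.01, -0.25, 0.38 and 0.44.

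**Figure D5:**
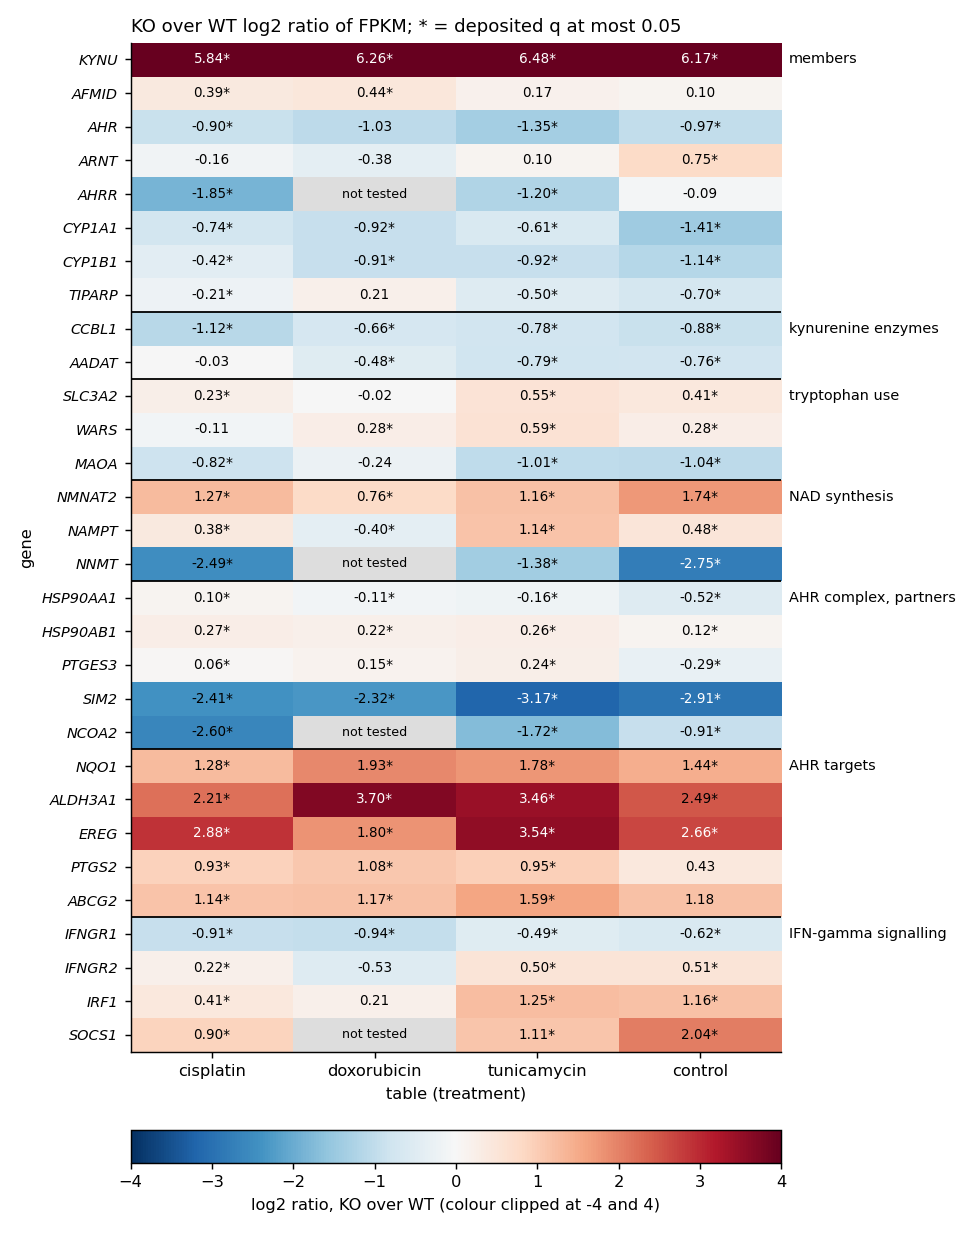
Log2 ratio of KO over WT FPKM in each table for the 8 tested members and for the genes of the 6 pathway lists called in the same direction in at least 3 tables, with red for higher and blue for lower in KO, colour clipped at -4 and 4, and a star for a deposited q of at most 0.05. KYNU is at 5.84 to 6.48, AHR, CYP1A1 and CYP1B1 are negative in all 4 columns, and NQO1, ALDH3A1 and EREG are positive in all 4.

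The genes whose pattern over the 8 groups was most like that of a member were found by the Euclidean distance between centred log2(FPKM + 1) values among 10881 genes. For KYNU they were CACNA2D4 (distance 0.616), GFPT2 (0.959), MIR3681HG (1.23), FERMT3 (1.38) and CADM4 (1.66). CACNA2D4, a calcium channel subunit, had 19.6, 21.8, 38.0 and 20.0 FPKM in KO cells against 0.0183, 0.157, 0.241 and 0.160 FPKM in WT cells under cisplatin, doxorubicin, tunicamycin and control. FERMT3 (kindlin-3), an integrin activator known from blood cells, had 64.5 to 99.8 FPKM in KO cells against 1.0 to 3.51 FPKM in WT cells. For AHR the nearest genes were NAT6 (0.451), MOCS1 (0.532) and MTL5 (0.543), none on chromosome 7. For CYP1B1 they were BNIP3L (0.334), HERC6 (0.393) and APPL2 (0.397), and for TIPARP ATL2 (0.268), MDM2 (0.441) and KBTBD2 (0.460). MDM2, the p53 antagonist, shared the very low doxorubicin values of TIPARP, at 1.23 FPKM in KO cells and 0.703 FPKM in WT cells, beside 15.1 and 23.2 FPKM in control. These lists depend on the measure of likeness: with Pearson correlation 2 of the 5 genes for KYNU, 0 of 3 for AHR, 1 of 3 for CYP1B1 and 1 of 3 for TIPARP remained.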

How the data were processed

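RNA-seq was run on MDA-MB-231 cells of 2 genotypes under 4 treatments (16 samples, 8 groups of 2). Per the submitters' processing notes, build hg38, FastQC 0.11.5, Trimmomatic 0.35, STAR 2.5.3, Cufflinks and Cuffdiff were used; their roles, the annotation release and strand use are not given in the sources used. Each of the 4 tables deposited by the authors lists FPKM for the KO and the WT group of 1 treatment. Deposited log2 values are KO over WT FPKM without pseudocount, as recomputation showed to within 4.64e-05. A score that the authors deposited per gene is the test statistic of Cuffdiff. The p-values and q-values are the authors', with q equal to the Benjamini-Hochberg adjusted p within a table to within 5.25e-07. Counts and depth are unknown, so a refit was not possible and p-values rest on the spread the authors' tool estimated. KO and WT columns were assigned from the group codes in the tables.

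The members and gene lists were chosen with earlier results of these data known. Every member is named, as are list genes called the same way in at least 3 of 4 tables, the 5 genes most like KYNU, the 3 most like AHR, CYP1B1 and TIPARP, and tested genes within 1 Mb of AHR and KYNU. Further genes (SLC7A5, CCBL2, GOT2, CYP2S1, untested list genes) were named after their values were seen, and 1 list gene is not reported here. Ratios, drug differences with a pseudocount of 1, windows of 10 Mb and promoter motifs (RefSeq, GRCh38.p14) were computed in Python 3.11.15 with pandas 2.3.3 and numpy 2.4.6. Only the code for the Benjamini-Hochberg adjustment and for the search for like genes was tested on simulated data. Alternatives were a q of 0.01, a fold of 2, a floor of 1 FPKM, adjustment over all tables, other pseudocounts, subtraction of table or window medians and upper-quartile scaling.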

Additional observations from a re-analysis of the deposited data

Results flagged for a closer look

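Genes of the pathway lists called with opposite sign in a drug table and in control, at a log2 ratio of at least 0.3 in both, were NAMPT, CCBL2 and EPAS1. NAMPT, the enzyme of NAD salvage, had a log2 ratio of KO over WT of -0.40 under doxorubicin and 0.48 in control, which is -0.87 for doxorubicin minus control. CCBL2, a kynurenine aminotransferase, had 0.31 under cisplatin and -0.76 in control, which is 1.06 for cisplatin minus control. EPAS1 (HIF-2 alpha), which also pairs with ARNT, had -0.51 under tunicamycin and 0.34 in control, which is -0.86 for tunicamycin minus control. The difference was not tested in any of the 3, since the tables hold no error for it.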

How the results depend on the processing

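No paired analysis was possible because the tables hold 1 value per group, and for the same reason no replicate could be left out; summing repeated rows was not run because every symbol had 1 row. Counts of called members and list genes stayed within 1.5 times under a floor of 1 FPKM, as did those of members under adjustment over all 4 tables, which was run for members only. A minimum of 2-fold left 1 member higher and 1 lower under cisplatin, 1 higher and 0 lower under doxorubicin, 2 lower under tunicamycin, and 1 higher and 2 lower in control. Of the 66 list genes it left 5 higher and 6 lower under cisplatin, 6 and 1 under doxorubicin, 8 and 4 under tunicamycin, and 6 and 5 in control, from 19 and 14, 14 and 7, 21 and 11, and 14 and 12. A q of at most 0.01 left 3 members lower under tunicamycin and 7 list genes lower in control. With a pseudocount of 1 the KYNU log2 ratio was 3.99 under cisplatin, 4.52 under doxorubicin, 5.02 under tunicamycin and 4.67 in control, since the WT values are below the pseudocount, and the AHRR ratio under cisplatin was -0.86. The AHR ratio changed sign against its window of 10 Mb under cisplatin (0.43) and in control (0.54), where it had been called. Of 162 recomputed drug responses 18 moved by over 0.58 on the log2 scale, all under another pseudocount, and upper-quartile scaling turned the sign of 8. That scaling could hardly pass the cutoff of 0.58. Its widest step was between upper quartiles of 26.5 FPKM under doxorubicin and 40.0 FPKM in control in WT cells. Of the genes most like KYNU, 2 of 5 were kept with Pearson correlation and 2 of 5 with a pseudocount of 0.1, and of those most like AHR 0 and 1 of 3, CYP1B1 1 and 3 of 3, and TIPARP 1 and 0 of 3. Depth is unknown, so low values (KMO, AHRR, KYNU in WT cells) have no stated precision.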
